A study of Homo sapiens and Mus musculus with 19 samples.

Results

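A set of 9 genes of the LIF-STAT3 pathway was followed in the chromatin-associated RNA (caRNA) of mouse embryonic stem cells (mESC): the ligand gene Lif, the receptor genes Lifr and Il6st, the kinase gene Jak1, the transcription factor gene Stat3, the feedback inhibitor gene Socs3 and the target genes Pim3, Bcl3 and Klf5. They are among the 54446 genes counted in each mouse library, and all 9 were among the 27603 genes with enough reads to be tested. The list was chosen by pathway membership with the fall of Socs3 in Nsun2-depleted cells already known, so the change between the siRNA groups had been used in choosing it and is given for the members as a description without a test.

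Leukaemia inhibitory factor (LIF) is a cytokine that keeps mouse embryonic stem cells undifferentiated in culture. It joins its receptor LIFR to the shared signalling chain gp130, which Il6st encodes, and JAK kinases bound to these chains then phosphorylate STAT3, which enters the nucleus and activates its target genes. SOCS3 is made in response to STAT3 and dampens signalling at gp130, so that Socs3 RNA is widely used as a readout of the pathway.

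The groups compared were mESC transfected with a control siRNA (siControl, genotype labelled control) and mESC transfected with an siRNA against Nsun2 (siNsun2, genotype labelled Nsun2 knockdown), with 3 libraries each. Nsun2 encodes an RNA cytosine-5 methyltransferase, and the study used its depletion to lower 5-methylcytosine in caRNA. Both groups were grown with serum, LIF, the GSK3 inhibitor CHIR99021 and the MEK inhibitor PD0325901, and were passaged off feeder cells on gelatin before use. LIF was therefore supplied to every culture. The time from transfection to harvest and the number of siRNAs against Nsun2 in these samples could not be taken from the sources used here. A single further mESC library, titled Pscp1 WT replicate 3 with genotype wildtype and here called Pspc1 WT, came from another experiment without siRNA groups and is set beside the others without a comparison.

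Libraries held 62989044 to 66832780 gene counts in siControl, 58078323 to 59411087 in siNsun2 and 91990658 in Pspc1 WT. Nsun2 itself had 126 to 133 CPM (counts scaled to a common library total) in siControl and 98.8 to 106 CPM in siNsun2 libraries, without overlap, and its log2 change of -0.34 passed the edgeR quasi-likelihood test (Benjamini-Hochberg adjusted p = 2.78e-16). The change of Nsun2 was -0.16 when libraries were scaled to total gene counts and -0.14 when scaled on genes well above background, with a call under both. It lay 0.12 below the median of genes of like level, of which 17.1% had a lower change. These counts appear to cover the whole gene span in caRNA, so they do not measure depletion of the mature Nsun2 mRNA. Reads outside genes made up 19.6% to 20.2% of records in siControl and 28.9% to 29.9% in siNsun2 libraries. Olfactory receptor genes, which these cells are not known to use and which serve here as a measure of background, stood at a mean of 0.0303 CPM per kb of gene span in siControl and 0.0450 in siNsun2. Of 8 stem cell marker genes, 7 were well above this background, and 6 of these were lower in siNsun2, with a median log2 change of -0.22. Among all tested genes at least 10 times above background 57.6% were lower, with a median of -0.19. The markers had a median distance of -0.02 from genes of like level. Nanog was at 115 to 118 CPM in siControl and 106 to 108 CPM in siNsun2 (-0.12), and Tdgf1 changed most (-0.37), whereas Pou5f1 was at 31.9 to 36.1 and 31.6 to 34.8 CPM (0.01) and did not pass the test. Of these 7, 2 were lower and 1 higher under total gene counts. Sox2 was listed at 0 in every library. It lies inside Sox2ot on the same strand, and reads shared by overlapping genes of the same strand were set aside in the counting. The 8 feeder fibroblast markers summed to 34.7 to 37.0 CPM in siControl and 30.4 to 33.2 CPM in siNsun2, with Thy1 and Lum at no more than 0.526 CPM in any siRNA library. Col1a1 and Col1a2, which made up most of that sum, were lower (-0.34 and -0.22), Twist2 was higher (1.32), and the other 4 tested did not pass the test. Of 4 tested primitive endoderm markers Gata4 was lower (-0.89) and Gata6 (0.71) and Pdgfra (0.57) were higher. Of 5 tested germ layer or trophectoderm markers Pax6 was higher (0.87) and Eomes lower (-0.38). The markers called higher stood near or below background in siControl, with Twist2 at 0.55, Gata6 at 1.27, Pax6 at 1.54 and Pdgfra at 1.71 times. Gata4 was at 5.84 and Eomes at 23.4 times. Relative to genes of like level, Gata6 and Pdgfra were at 0.22, Pax6 at 0.41 and Twist2 at 0.80. With total gene counts the calls of Col1a1, Col1a2 and Eomes were lost and 2 feeder markers were higher. The primitive endoderm markers summed to 16.5 to 17.0 CPM in siControl and 12.7 to 13.4 CPM in siNsun2. The germ layer or trophectoderm markers summed to 7.44 to 8.49 CPM in siControl and 7.06 to 8.75 CPM in siNsun2. The part of any of these markers in the results below was not tested.

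The members covered a wide range of levels. Levels of different genes were compared as CPM per kb of gene span, since introns appeared to be counted. Klf5, a Krüppel-like factor gene that supports self-renewal, came first at 11.8 CPM per kb in siControl, followed by Il6st at 5.10, Socs3 at 3.79, Pim3 at 3.56, Bcl3 at 3.06, Stat3 at 2.37, Lifr at 1.44, Jak1 at 0.937 and Lif at 0.237. The ranges of Socs3 (3.62 to 3.93) and Pim3 (3.41 to 3.72) overlapped, so their order was not settled, whereas those of the other neighbours in the order did not overlap. With exon length in place of gene span, 4 of the 9 kept their rank, and Socs3 and Pim3 went from 3rd and 4th to 7th and 8th. Within each siControl library Il6st was 3.40 to 3.66 times Lifr per kb of gene span, so that RNA of the shared chain exceeded that of the LIFR chain. The gap was smaller per kb of exon, with siControl means of 21.13 CPM for Il6st and 14.25 CPM for Lifr. Relative to the olfactory receptor background, Klf5 stood 390 times higher in siControl, Socs3 125 times, Jak1 30.9 times and Lif 7.82 times. Lif was the only member less than 10 times above background.

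**Figure D1:**
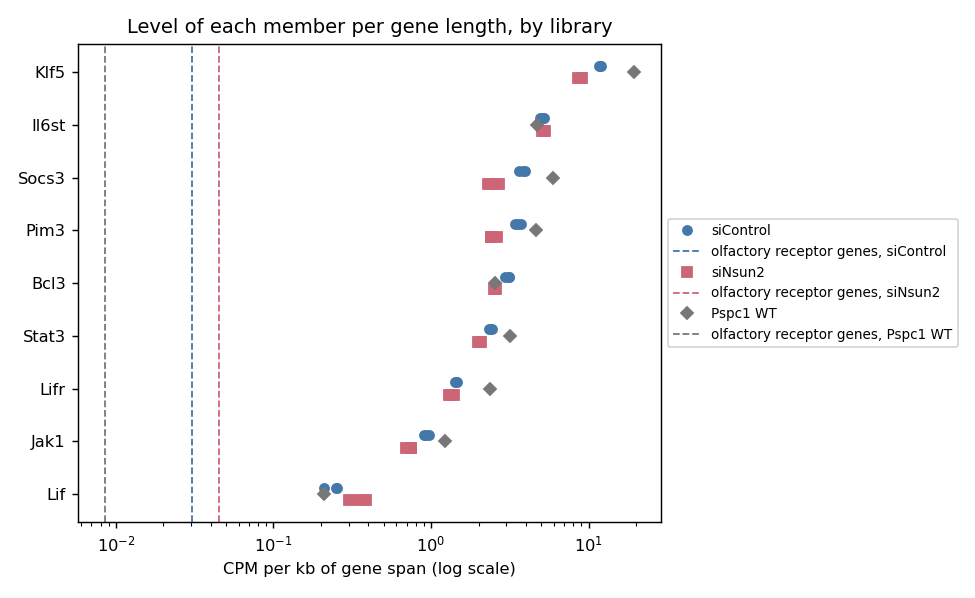
Level of each member in CPM per kb of gene span (horizontal, log scale), with 1 point per library, and the mean of olfactory receptor genes as a dashed line for siControl, siNsun2 and Pspc1 WT. Klf5 was highest at 11.8 CPM per kb in siControl and Lif lowest at 0.237, and the dashed lines of both siRNA groups lie left of every member.

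Lif (ENSMUSG00000034394.14, mm10 chromosome 11, 4257557 to 4272514, plus strand) gave 3.73, 3.13 and 3.79 CPM in the siControl libraries and 4.51, 5.78 and 5.31 CPM in the siNsun2 libraries. It was the only member with every siNsun2 library above every siControl library, at a log2 change of 0.55 (SE 0.15). Its level was 7.82 times background in siControl and 7.73 times in siNsun2, as olfactory receptor genes also stood higher in siNsun2. With the olfactory receptor rate subtracted over the span of the gene, its log2 ratio was 0.55.

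The receptor genes showed small differences. Lifr (ENSMUSG00000054263.12, chromosome 15, 7090614 to 7197489, plus strand), the chain that binds LIF, gave 155, 153 and 152 CPM in siControl and 140, 143 and 150 CPM in siNsun2. The groups did not overlap but came within 2 CPM of each other, with a log2 change of -0.09 (SE 0.03). Il6st (ENSMUSG00000021756.12, chromosome 13, 112464070 to 112510086, plus strand), whose product also serves the other cytokines of the family, gave 228, 237 and 239 CPM in siControl and 243, 232 and 238 CPM in siNsun2. The values of Il6st overlapped, and its log2 change was 0.02 (SE 0.03).

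Downstream of the receptor, Jak1 and Stat3 were lower in siNsun2. Jak1 (ENSMUSG00000028530.14, chromosome 4, 101152367 to 101265282, minus strand), the main kinase at gp130, gave 105, 102 and 110 CPM in siControl and 78.5, 84.3 and 84.4 CPM in siNsun2. The gap exceeded the spread within either group, and the log2 change was -0.36 (SE 0.03). Gm12785 overlaps Jak1 on its strand, so the level of Jak1 is uncertain. Stat3 (ENSMUSG00000004040.16, chromosome 11, 100885098 to 100939540, minus strand) gave 126, 133 and 128 CPM in siControl and 111, 113 and 108 CPM in siNsun2, again without overlap, at a log2 change of -0.22 (SE 0.03). Stat5a overlaps Stat3 only on the opposite strand, which the counting appeared to keep apart.

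Socs3 (ENSMUSG00000053113.3, chromosome 11, 117966079 to 117970047, minus strand), the gene whose fall led to the choice of the list, gave 15.1, 14.4 and 15.6 CPM in siControl and 10.6, 10.1 and 9.11 CPM in siNsun2. All 3 siNsun2 libraries lay below the lowest siControl library, and the log2 change was -0.59 (SE 0.09). Socs3 spans only 3.97 kb and no other gene overlaps it on either strand. The level fell from 125 to 55.9 times the background of the same group. Part of that fall came from the background, which rose from 0.0303 to 0.0450 CPM per kb. Il6st, whose CPM hardly changed, went from 168 to 115 times background. As a share of Stat3 CPM in the same library, Socs3 was at 10.8% to 12.2% in siControl and 8.43% to 9.60% in siNsun2. This ratio within a library is free of the scaling between libraries.

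The remaining targets were all lower in siNsun2 without overlap between groups. Pim3 (ENSMUSG00000035828.11, chromosome 15, 88862186 to 88865726, plus strand), which encodes a serine/threonine kinase, gave 12.1, 12.6 and 13.2 CPM in siControl and 8.49, 8.54 and 9.24 CPM in siNsun2, a log2 change of -0.52 (SE 0.09). Klf5 (ENSMUSG00000005148.8, chromosome 14, 99298691 to 99315036, plus strand) gave 196, 194 and 191 CPM in siControl and 148, 139 and 145 CPM in siNsun2, with -0.43 (SE 0.03) on the log2 scale. Bcl3 (ENSMUSG00000053175.17, chromosome 7, 19808462 to 19822770, minus strand), which encodes a nuclear protein of the I-kappa-B family, gave 44.8, 41.9 and 44.5 CPM in siControl and 36.7, 36.0 and 36.4 CPM in siNsun2, with -0.27 (SE 0.05). Among the members the order of change was thus Socs3, Pim3 and Klf5 at the low end, then Jak1, Bcl3, Stat3 and Lifr, with Il6st near 0 and Lif above.

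In the fit across all genes, 7 of the 9 members were past an adjusted p of 0.05 in the lower and 1 in the higher direction, where 24.3% and 25.8% of all tested genes were. Of the 8 members at least 10 times above background 7 were lower and 0 higher, where 57.6% and 4.61% of that class were. The same comparison was used to choose the list, so nothing is read from these counts. Over all tested genes, the 3 siNsun2 values all lay below the 3 siControl values in 26.3% and above them in 30.3%, compared with 7 members below and 1 above. The median log2 change of the members was -0.27, compared with 0.14 over all tested genes and -0.19 over the 10752 tested genes at least 10 times above background. The change across all genes depended on level, with a running median of 0.62 at a mean log2 CPM of -1 and -0.22 at 7. Each member was therefore also set beside the tested genes within 0.5 of its own mean log2 CPM. Stat3, at -0.01 from the median of those genes, and Bcl3, at -0.08, lay close to it. Socs3 lay 0.51 below the median of its 2341 such genes, Pim3 was at -0.46, Klf5 at -0.21 and Jak1 at -0.15. Genes were matched on CPM alone and not on gene span or distance from background. The medians for Socs3 (-0.09) and Pim3 (-0.06) were thus above the -0.19 of genes at least 10 times above background. Lifr, Il6st and Lif lay above, at 0.13, 0.24 and 0.32. Another scaling shifts all genes by nearly the same amount and so moves these distances little.

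**Figure D2:**
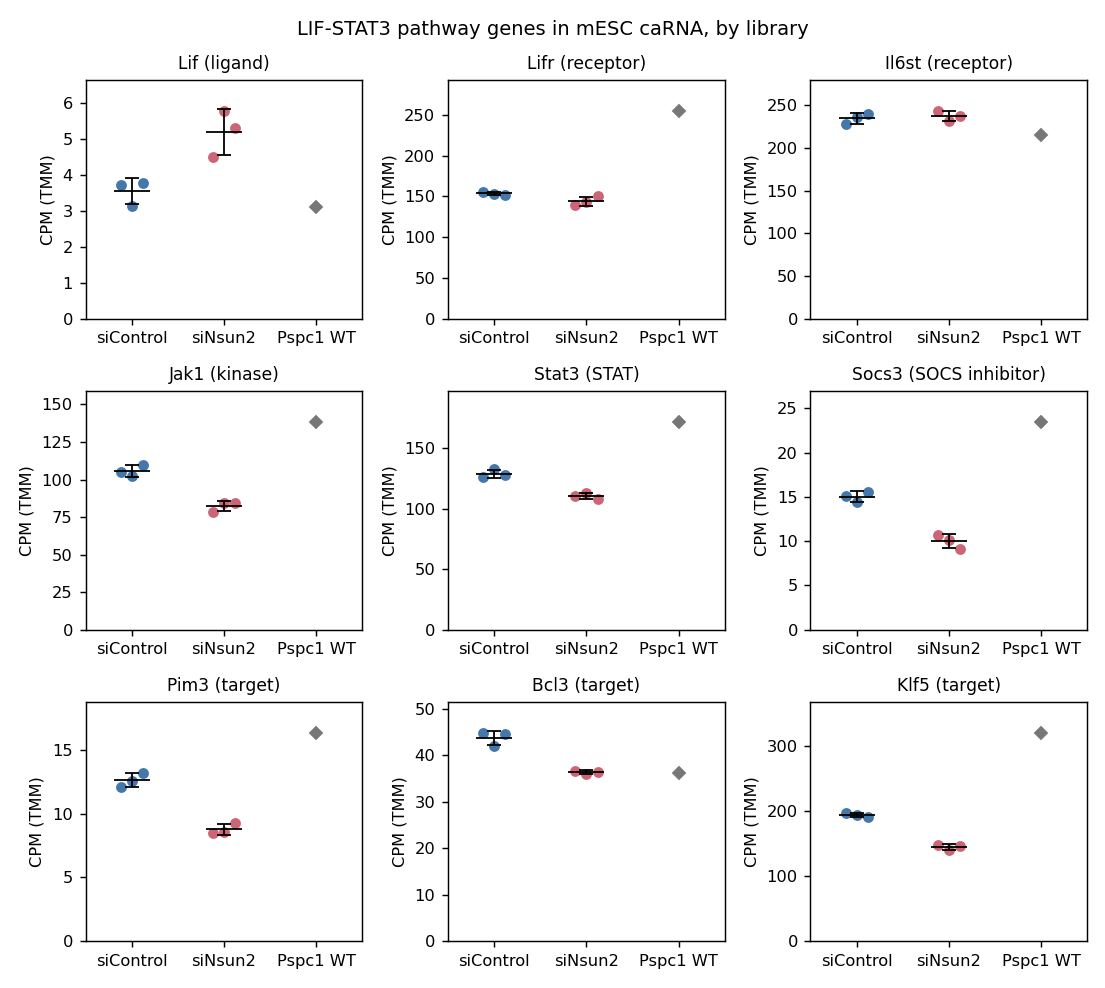
CPM of each member (vertical, from 0) in the 3 siControl, 3 siNsun2 and single Pspc1 WT libraries, with points for libraries and bars for the mean and SD of each siRNA group. In 7 panels every siNsun2 point lies below every siControl point, in the Il6st panel the groups overlap, and in the Lif panel siNsun2 lies above.

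**Figure D3:**
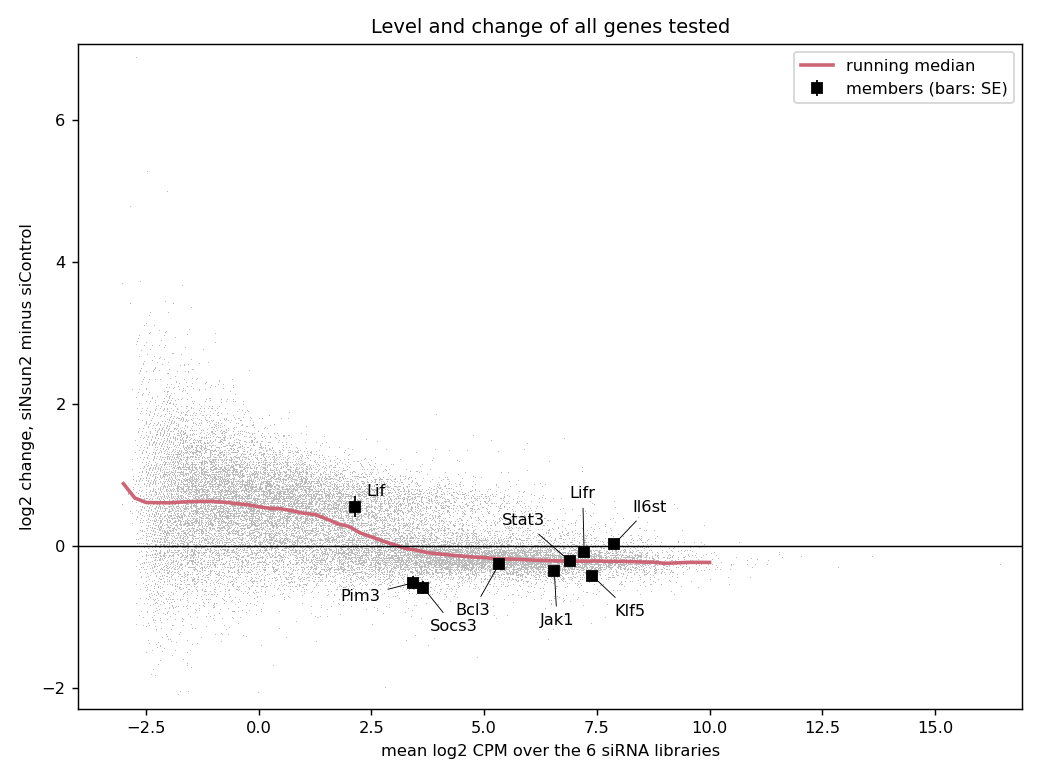
Mean log2 CPM over the 6 siRNA libraries (horizontal) and log2 change, siNsun2 minus siControl (vertical), of the 27603 tested genes as grey dots, with the running median as a line and the 9 members as squares with SE. The line falls from 0.62 at a mean log2 CPM of -1 to -0.22 at 7, and Socs3 and Pim3 lie well below it while Il6st lies above.

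The scaling between libraries set the direction of the members with small changes. With scaling to total gene counts the members' median moved from -0.27 to -0.085, and with TMM factors taken from genes well above background to -0.072. Each of these left 4 members past the threshold in the lower direction, namely Socs3, Pim3, Klf5 and Jak1, and 3 in the higher, namely Lif, Lifr and Il6st. Lifr turned to 0.088 and 0.10 under them, and Il6st went to 0.20 and 0.21. Stat3 (-0.041 and -0.027) and Bcl3 (-0.085 and -0.072) were no longer past it. Lifr was also no longer past it without siNsun2 replicate 1 (-0.074) and under the stricter filter (-0.034). The same filter brought Il6st past it in the higher direction (0.078). Under DESeq2 size factors Il6st changed sign, at -0.041. Over 14 alternatives, which include leaving out each library, Socs3 ranged from -0.65 to -0.40, Pim3 from -0.59 to -0.33, Klf5 from -0.49 to -0.23, Jak1 from -0.42 to -0.17 and Lif from 0.46 to 0.75. The tables held no spike-in RNA, so these values are relative to the other RNA of the same libraries. In bulk samples of this kind, fewer cells with a transcript and less of it per cell cannot be told apart.

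**Figure D4:**
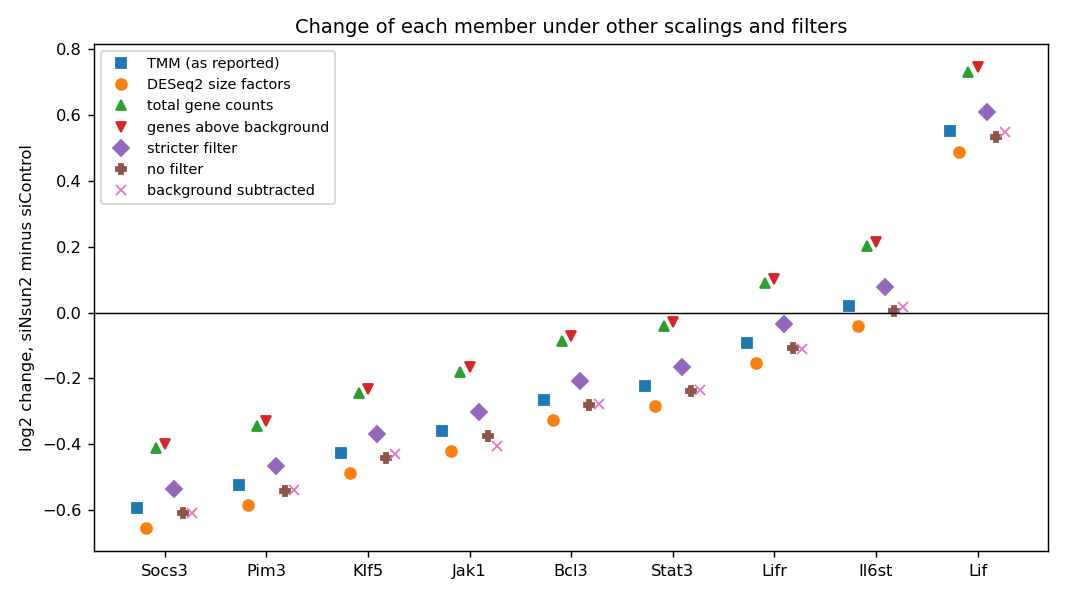
Log2 change of each member, siNsun2 minus siControl (vertical), as reported and under 6 other scalings, filters or a background subtraction (symbols). All symbols lie below 0 for Socs3, Pim3, Klf5, Jak1, Bcl3 and Stat3 and above 0 for Lif, and they lie on both sides of 0 for Lifr and Il6st.

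Other genes of the pathway were taken from a written list of 55 genes that left the members out. Of these, 54 were tested, 26 were lower and 6 higher in siNsun2, and 22 did not pass the test (edgeR quasi-likelihood, adjusted p under 0.05). That is set beside 24.3% of all tested genes lower and 25.8% higher. Their median log2 change was -0.15. Under total gene counts 14 were lower and 13 higher with a median of 0.026, so the balance of directions rested on the scaling. Cntf was listed at 0 in every library and lies within Zfp91 on the same strand. Among the 29 genes at least 10 times above background over the 6 libraries, 22 were lower and 1 higher, where 57.6% and 4.61% of all genes of that class were. Among the other 25 tested genes 4 were lower and 5 higher.

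The 4 largest falls on this list were in target genes of the pathway. Of 14 targets, 9 fell and none rose with TMM, with a median of -0.34, whereas 7 fell and 1 rose under total gene counts. All 9 were among the 10 targets at least 10 times above background, a class in which 57.6% of all tested genes were lower. Klf4, a pluripotency factor gene, fell from 61.7 to 67.7 CPM in siControl to 35.8 to 36.9 CPM in siNsun2, a log2 change of -0.81 (SE 0.04, edgeR adjusted p = 7.46e-29). Tfcp2l1, which encodes another transcription factor of naive stem cells, fell from 692 to 701 CPM to 433 to 449 CPM, at -0.66 (SE 0.02, edgeR adjusted p = 7e-45). Gm23497 overlaps Tfcp2l1 on its strand, so its level is uncertain. Pim1, the paralogue of Pim3, fell by 0.55 on the log2 scale (edgeR adjusted p = 3.65e-10), and Bcl6, which encodes a transcriptional repressor, fell by 0.52 (edgeR adjusted p = 6.61e-07). These 4 calls held under every alternative run. The values were -0.63 for Klf4, -0.47 for Tfcp2l1, -0.37 for Pim1 and -0.34 for Bcl6 under total gene counts. Relative to the median of genes of like level they were at -0.62, -0.41, -0.42 and -0.44. These 4 were picked as the largest falls. All 14 targets had a median distance of -0.45 on that scale, from -0.74 to 0.15, with 1 above 0. This median was lowered by weakly present targets, whose genes of like level had positive medians of 0.46 to 0.61. The 5 targets that did not pass the test lay at -0.74 to -0.55, though their log2 changes were only -0.23 to -0.04. The 7 stem cell markers had a median distance of -0.02, from -0.16 to 0.18, with 3 above 0. For these markers the medians of genes of like level were -0.25 to -0.17. The lists thus differ in level as well, and the difference between them was not tested. The 5 targets that did not pass the test were all at no more than 2.51 CPM in every siRNA library and included Myc at -0.04, named after its value was seen.

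Of the 7 other SOCS genes, Socs6 (-0.27, edgeR adjusted p = 1.72e-09) and Socs7 (-0.21, edgeR adjusted p = 3.56e-05) were lower, and the other 5 did not pass the test. That is set beside 24.3% of all tested genes lower. Of the 4 at least 10 times above background 1 was lower, where 57.6% of that class were. Relative to genes of like level Socs6 was at -0.06 and Socs7 at -0.02. Socs7 lost its call under total gene counts (-0.028) and on genes well above background (-0.015), and Socs6 under the latter (-0.075), which left none of the 7 lower. Socs2 was at 46.4 to 47.9 CPM in siControl and 45.7 to 48.2 CPM in siNsun2, with a log2 change of -0.01. Socs4 was at -0.08, Socs5 at 0.07, Socs1 at 0.13 and Cish at 0.19. Neither Socs1 nor Cish reached 3 CPM in any siRNA library. Under total gene counts the median of the family turned from -0.01 to 0.18, with 1 gene lower and Socs2 and Socs5 higher. Other annotated transcripts overlap Socs6 on its strand, and its level is uncertain. The difference between Socs3 and its relatives was not tested.

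Among kinases and STATs the changes went both ways. Jak2 (-0.16, edgeR adjusted p = 0.0422) and Tyk2 (-0.17, edgeR adjusted p = 0.0228) were lower with TMM, but their calls were lost under total gene counts, where they stood at 0.019 and 0.012. Jak2 also lost its call without siControl replicate 2 (-0.16) or 3 (-0.17) and without siNsun2 replicate 1 (-0.17) or 3 (-0.13). The stricter filter removed the call of Jak2 as well (-0.10). Tyk2 lost its call without siControl replicate 1 (-0.14) or siNsun2 replicate 2 (-0.13). Jak3, the kinase of lymphoid cytokine receptors, was higher at 0.39 (edgeR adjusted p = 1.91e-08), though Insl3 overlaps it on its strand. Stat2 was lower, at 39.8 to 42.1 CPM in siControl and 29.9 to 31.9 CPM in siNsun2 (-0.41, edgeR adjusted p = 3.31e-11), as was Stat5b at -0.36 (edgeR adjusted p = 4.79e-06). Stat2 moved to -0.23 and Stat5b to -0.18 under total gene counts, both still lower. Stat4 (0.13), Stat5a (-0.02) and Stat6 (-0.11) did not pass the test, though Stat4 was higher under total gene counts (0.32). Stat4 stood 5.0 times above background in siControl, and Gm28177 overlaps it on its strand. With the olfactory receptor rate subtracted over its span, the log2 ratio of Stat4 was 0.0035 with TMM. The STAT median turned from -0.12 to 0.062 under total gene counts, and that of the kinases from -0.16 to 0.019.

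Genes for other ligands and receptors of the gp130 family were weakly present. The 8 other ligand genes summed to 5.47 to 6.15 CPM in siControl and 6.82 to 8.30 CPM in siNsun2. Osm, which encodes oncostatin M, was higher (0.85, edgeR adjusted p = 0.0382), but it was under 4 times background in siControl and lost its call when single libraries were left out. Its adjusted p was 0.13 without siControl replicate 1, 0.0615 without siControl replicate 3, and 0.273 and 0.0549 without siNsun2 replicates 2 and 3. Among 6 receptor genes, the specific chains Cntfr (0.47), Osmr (0.43) and Il11ra1 (0.42) were higher and Il6ra was lower (-0.43), with edgeR adjusted p-values of 0.00222, 0.00157, 0.00127 and 2.86e-05. The higher 3 stood 2.95 to 3.66 times above background in siControl and Il6ra 8.93 times. Il6ra moved to -0.25 under total gene counts and kept its call. Galt overlaps Il11ra1 on its strand. With the olfactory receptor rate subtracted, a step added after seeing the data, the log2 ratios were 0.43 for Cntfr, 0.35 for Osmr, 0.34 for Il11ra1 and -0.63 for Il6ra.

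Inhibitors outside the SOCS family and the adaptors that link gp130 to MAPK signalling were mostly lower with TMM. Of 6 such inhibitors 5 were lower, with log2 changes of all 6 between -0.36 and -0.15. All 5 adaptor genes were lower, between -0.33 and -0.08. These 11 genes were all at least 10 times above background, where 57.6% of all tested genes were lower, and 3 of the inhibitors and 2 of the adaptors lay above the median of genes of like level. Under total gene counts only 1 inhibitor gene was lower, and 2 adaptor genes were lower and 1 higher, with medians of -0.027 and -0.060.

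**Figure D5:**
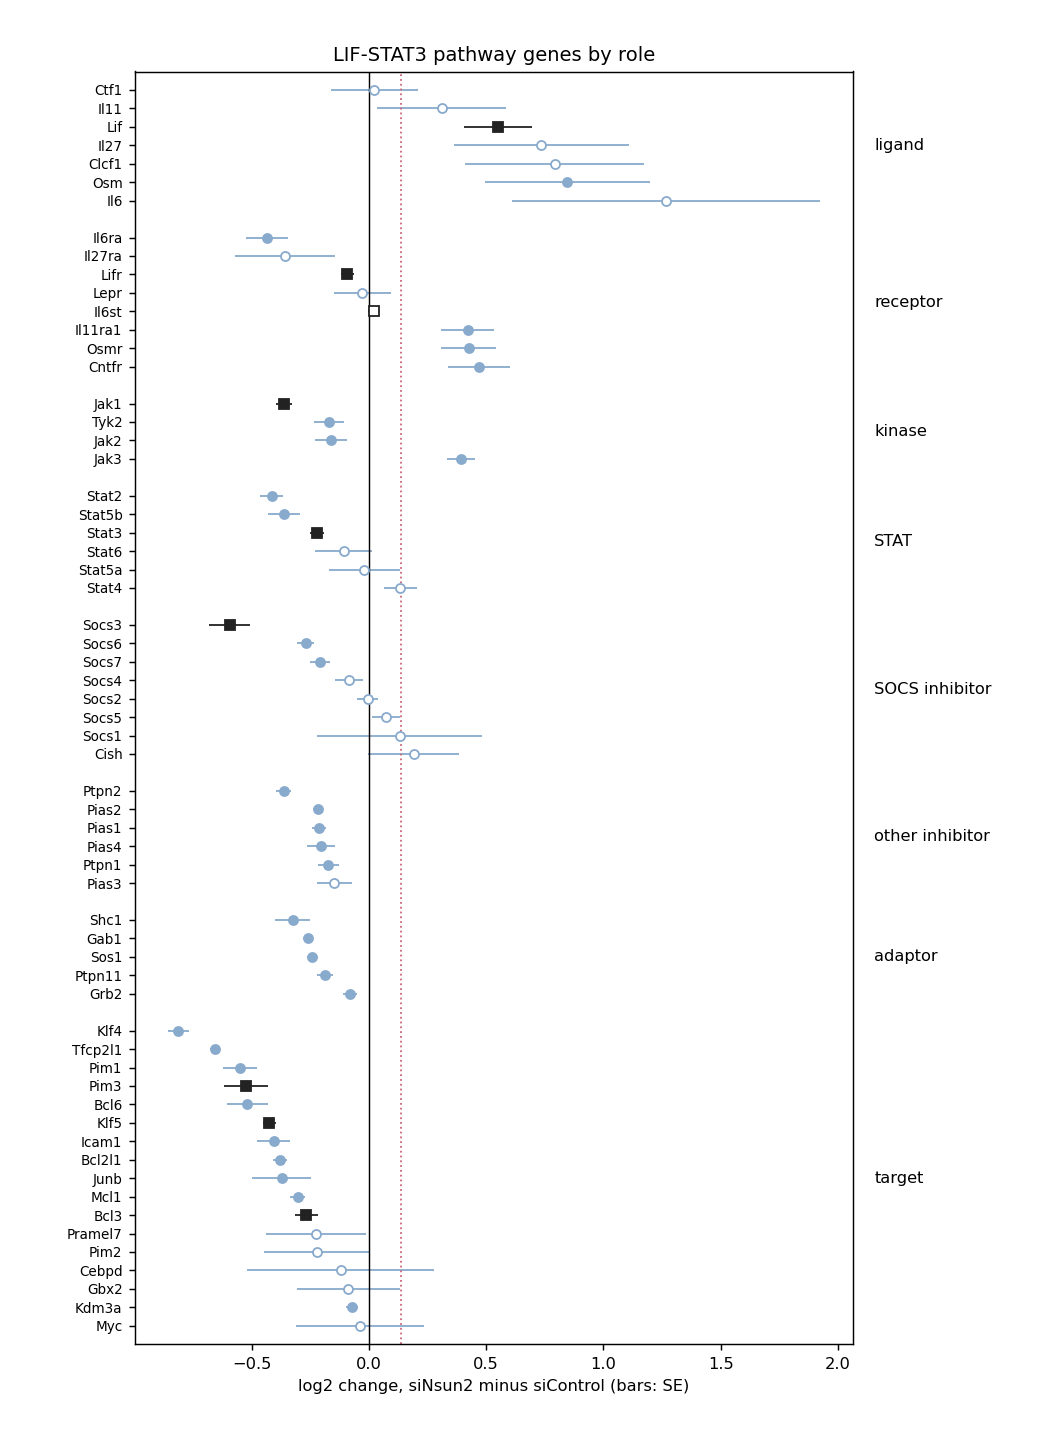
Log2 change, siNsun2 minus siControl (horizontal, bars for SE), of the 9 members (black squares) and 52 other tested genes (blue circles) grouped by role, with filled symbols for an adjusted p under 0.05 and the dotted line at the median of all tested genes, 0.14. Targets lie to the left, from Klf4 at -0.81 to Myc at -0.04, and the ligands lie right of 0.

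Genes around Socs3 were examined to see its position among its neighbours. Of 19 other genes within 200 kb of its start, 13 were tested, 6 of them lower and 1 higher in siNsun2, with a median log2 change of -0.21, beside 24.3% and 25.8% of all tested genes. Of the 6 neighbours at least 10 times above background 5 were lower, beside 57.6% of that class. The lower genes were Tk1 (-0.23), Gm20708 (-0.26), Birc5 (-0.21), Gm11725 (-0.70), Pgs1 (-0.16) and Cyth1 (-0.28), and 6030468B19Rik was higher (1.20). Relative to genes of like level Birc5 was at -0.04, Tk1 at -0.06, Pgs1 at 0.05, Cyth1 at -0.09 and Gm20708 at -0.14. On that scale Gm11725 was at -0.85, further below than Socs3 at -0.51, and 6030468B19Rik was at 0.65. Both were closer to background than Socs3. Gm11725 stood 12.9 times above it in siControl and 5.4 times in siNsun2, and 6030468B19Rik 1.95 and 3.05 times. Pgs1, the nearest tested gene at 16.3 kb, had 122 to 123 CPM in siControl and 108 to 110 CPM in siNsun2 libraries. Gm11725, 82.6 kb away on the other side, was the only tested neighbour past the threshold with a larger fall than Socs3, at 6.03 to 6.82 CPM in siControl and 3.18 to 4.28 CPM in siNsun2. Tmc6 (-0.03), Tmc8 (-0.11), Tmem235 (-0.06), Tha1 (-0.45), Dnah17 (-0.07) and Gm11738 (-1.17) did not pass the test. Under total gene counts Tk1 (-0.053), Gm20708 (-0.081) and Birc5 (-0.026) lost their calls and Pgs1 turned to 0.020, and Cyth1 (-0.086) lost its call on genes well above background. Afmid and Syngr2, listed at 0, overlap Gm20708 on its strand.

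The genes whose log2 CPM followed Socs3 most closely over the 6 siRNA libraries were Slc25a53 (Pearson r = 0.9998), Tmod3 (0.9991) and Mkx (0.9989). The libraries fall into the groups compared, so r mainly reflects the group difference, and 343 genes reached r = 0.98. The log2 changes of these 3 genes were -0.34, -0.30 and -0.26, smaller than that of Socs3.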

How the data were processed

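caRNA was taken from the chromatin pellet left after detergent lysis, a sucrose cushion and urea extraction of nuclei, and stranded total-RNA libraries were made after depletion of ribosomal RNA. The submitters' processing notes name Trimmomatic 0.39, HISAT2 2.2.1, HTSeq 0.12.4 and the build mm10. As deposited, each library had its own table of unscaled read counts for the annotated genes. The study's methods also name featureCounts for caRNA, but the tables carry the summary lines of HTSeq. The feature type and strand option are not stated in these sources. Of 5121 genes lying only in an intron of a same-strand gene, 5104 were at 0 throughout, compared with 9.84% of those in an opposite-strand intron, so counts were treated as stranded and over whole gene spans. Lines naming no gene were left out.

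Symbols and positions came from GENCODE M21 (mm10), whereas the study used release M19, and 99.93% of identifiers matched. The members and lists were chosen with earlier results of these data known. Groups came from the labels. The study describes its genome-wide data as biological replicates, and the labels do not tie the libraries to cultures, so p-values measure the spread between these libraries. Replicate pairs differed by more than sampling noise (chi-square per degree of freedom 3.92 to 5.66).

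Genes were tested with edgeR 4.0.16 (quasi-likelihood, robust, limma 3.58.1, R 4.3.3) after filterByExpr at a minimum of 10 counts, with TMM scaling over the 6 siRNA libraries and a Benjamini-Hochberg adjustment of the two-sided p-values across 27603 genes. CPM values use TMM library sizes, SE come from the quasi-likelihood F statistic, and the Pspc1 WT library was scaled together with the others. The named genes were the members, the tested STAT, SOCS and kinase genes, the 10 other pathway genes with the largest change past the threshold, the tested genes within 200 kb of Socs3, the 3 genes most like it, and Nsun2. Alternatives were DESeq2 size factors, total gene counts, TMM on genes at least 10 times above background, no filter, at least 50 counts in 3 libraries, DESeq2 1.42.0, the replicate number as a block, leaving out each library and, added after seeing the data, subtraction of the olfactory receptor rate per kb. Scripts were tested on simulated counts. A few genes that these rules name are not reported here. The K562 libraries of the series were not used here. No DNA or protein sequence is shown, as none of mouse was used here.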

Additional observations from a re-analysis of the deposited data

Results flagged for a closer look

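The single Pspc1 WT library, which entered no comparison, stood above all 3 siControl libraries in 6 members. It held Lifr at 255 CPM, Jak1 at 138, Stat3 at 172, Socs3 at 23.4, Pim3 at 16.3 and Klf5 at 319 CPM. These 6 values were also above every siNsun2 library. The share of all tested genes above siControl in this library was not counted, so nothing about the members is read from the 6. The other pathway list also summed higher there, at 5874 CPM against 4154 to 4185 CPM in siControl. So did the 8 stem cell markers, at 2195 CPM against 1245 to 1282 CPM, though Tdgf1 among them lay below siControl. The feeder fibroblast markers also summed higher, at 82.1 CPM against 34.7 to 37.0 CPM. The germ layer or trophectoderm markers summed to 9.81 CPM against 7.44 to 8.49 CPM. The primitive endoderm markers summed lower, at 5.57 CPM against 16.5 to 17.0 CPM. Lif at 3.11 CPM and Il6st at 215 CPM lay below all 6 siRNA libraries, and Bcl3 at 36.3 CPM lay below siControl and within the siNsun2 values. The library came from another experiment and differed in depth, with 10.7% of its records outside genes and olfactory receptor genes at 0.00852 CPM per kb, so experiment and cell state cannot be told apart. With 1 library there is no replicate check.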

How the results depend on the processing

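Direction and side of the threshold were compared under each alternative. Scaling mattered most, since it moved the median log2 change of all genes from 0.14 with TMM to 0.07 with DESeq2 size factors, 0.32 with total gene counts and 0.33 with TMM on genes above background. The genes called lower, 6716 with TMM, became 2595 and 2321 under the last 2, with 10232 and 10555 called higher instead of 7128. The members lower became 4 and 4 and those higher 3 and 3, with medians of -0.085 and -0.072, and Lifr reversed to 0.088 and 0.10. The other pathway genes lower became 14 and 12 and those higher 13 and 13, and their median reversed to 0.026 and 0.040. In the same order Jak2 reversed to 0.019 and 0.033, Tyk2 to 0.012 and 0.026, Socs2 to 0.18 and 0.19 and Pgs1 to 0.020 and 0.034. DESeq2 size factors and the DESeq2 test each gave medians of -0.33 for members and -0.22 for the other genes, no filter -0.28 and -0.17, and the stricter filter -0.21 and -0.12 with 2 members higher. By exon length 4 of 9 members kept their rank.

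Leaving out 1 library gave 6 to 7 members lower and 1 higher, medians of -0.30 to -0.26 for members, 24 to 25 other pathway genes lower and 5 to 6 higher with medians of -0.18 to -0.15, and 6102 to 6546 genes lower and 5667 to 6539 higher overall. Lifr was the member lost, without siNsun2 replicate 1 (-0.074). Subtracting background left the members' median at -0.28 and moved Jak1 to -0.40.

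The replicate numbers did not pair the samples, as deviations of same-numbered libraries had correlations of -0.02, 0.03 and -0.04. With the replicate block 7 members were lower and 1 higher, 26 other pathway genes were lower and 5 higher, and 6682 and 7016 genes were lower and higher overall. Osm (0.82, adjusted p = 0.0506 by edgeR) was the named gene whose call was lost under the block.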
